A study of Mus musculus with 22 samples.

Results

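Toll-like receptors were followed across mouse renal capsule, capsule macrophages and kidney macrophages in 22 bulk RNA-seq libraries. The 10 receptors were taken by gene symbol, Tlr1, Tlr2, Tlr3, Tlr4, Tlr5, Tlr6, Tlr7, Tlr8, Tlr9 and Tlr13, out of 52636 genes in the deposited tables, and all 10 passed the expression filter in every comparison. The sample titles gave 6 groups: aged RCAM libraries (4), young RCAM libraries (4), macrophages of the renal capsule (4), macrophages of the kidney (4), aged capsule tissue (3) and young capsule tissue (3). None of the mice had a treatment per the labels, which give no strain, sex, genotype or age beyond young and aged, and no age class for the capsule and kidney macrophages. The renal capsule is the thin connective sheath of the kidney. The labels do not expand RCAM and list those libraries as whole tissue, whereas the series text describes capsule macrophages sorted by flow cytometry. Nothing states that the libraries of a group came from separate animals, so a p-value here weighs a difference only against the variation of these libraries, part of which may be technical.

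Toll-like receptors are membrane proteins by which innate immune cells detect molecules of microbes and of damaged cells. Tlr1, Tlr2, Tlr4, Tlr5 and Tlr6 sit at the cell surface and bind bacterial lipopeptides, lipopolysaccharide or flagellin, while Tlr3, Tlr7, Tlr8, Tlr9 and Tlr13 sit in endosomes and bind nucleic acids. Most signal through the adaptor Myd88, Tlr3 through Ticam1 and Tlr4 through both, towards NF-kB and interferon regulatory factors that switch on cytokine genes, and macrophages are among the main cells that carry them.

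Library totals were 45.0 to 51.8 M counts (1e6) in aged RCAM libraries, 49.8 to 54.4 M in young RCAM libraries, 39.3 to 53.4 M in capsule macrophages, 31.8 to 49.9 M in kidney macrophages, 27.1 to 43.2 M in aged tissue and 20.6 to 22.2 M in young tissue. A level below is a gene's counts per 1e6 (CPM) of that total. Summed over 10 macrophage markers, all of them detected in every library, the level was 36060 to 40110 CPM in the aged and 35950 to 38450 CPM in the young RCAM libraries. It was 34320 to 38050 CPM in macrophages of the capsule, 25860 to 28360 CPM in those of the kidney, 4137 to 10180 CPM in aged tissue and 2012 to 4010 CPM in young tissue. The RCAM libraries thus stood with the sorted macrophages and not with the whole tissue their label names. Adrenal markers summed to 5919 CPM in aged tissue library 2 and 179 CPM in young tissue library 2, against at most 13.6 CPM in each of the other tissue libraries. The comparison of aged with young tissue is therefore also given without both libraries numbered 2. The regular-input and low-input library kits named in the labels are not assigned to samples.

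Some receptors share sequence with each other, which bears on how far their counts can be separated. Tlr1 (chr5:64924679-64933563, minus strand, GRCm38) and its neighbour Tlr6 (chr5:64952031-64960097, minus strand) hold an identical coding stretch of 229 nucleotides, the longest they share, shown here because reads of 50 bp from within it fit either gene equally well.
Tlr1 and Tlr6 coding sequence: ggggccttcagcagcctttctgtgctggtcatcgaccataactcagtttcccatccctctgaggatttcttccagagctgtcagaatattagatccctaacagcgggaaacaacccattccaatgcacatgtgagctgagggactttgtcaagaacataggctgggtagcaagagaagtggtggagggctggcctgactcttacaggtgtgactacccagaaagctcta
Of all 50-base windows over the annotated exons, 15.4% in Tlr1 and 12.3% in Tlr6 recur in another gene, most often in each other. Levels of this pair are therefore uncertain by the reads that fall there. Tlr3 shares 5.30% of its windows with the antisense gene Gm45542, which reached at most 9 counts (0.196 CPM) in a library, Tlr4 shares 0.216% and the other 6 receptors share none.

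The start regions of Tlr13, Tlr8 and Tlr5 are shown because these genes had large differences with age or with site in what follows. Each window runs from 250 bases before to 50 after a RefSeq transcription start (GRCm38.p6), in the direction of transcription, with capitals marking GAGGAA or its reverse complement TTCCTC, the core of the element bound by the macrophage factor Spi1.
Tlr13, chrX:106143025-106143324, plus strand: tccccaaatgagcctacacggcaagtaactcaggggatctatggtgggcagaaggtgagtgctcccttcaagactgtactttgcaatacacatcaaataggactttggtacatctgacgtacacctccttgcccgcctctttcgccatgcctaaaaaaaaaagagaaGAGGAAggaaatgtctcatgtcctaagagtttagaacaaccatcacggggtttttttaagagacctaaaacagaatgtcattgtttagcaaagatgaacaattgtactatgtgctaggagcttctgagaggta
Tlr8, chrX:167264280-167264579, minus strand: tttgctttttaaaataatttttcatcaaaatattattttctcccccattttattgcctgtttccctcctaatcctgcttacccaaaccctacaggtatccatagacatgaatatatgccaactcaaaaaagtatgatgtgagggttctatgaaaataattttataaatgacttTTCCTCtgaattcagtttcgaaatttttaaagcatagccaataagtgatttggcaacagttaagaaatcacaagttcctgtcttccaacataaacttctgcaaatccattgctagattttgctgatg
Tlr5, chr1:182954538-182954837, plus strand: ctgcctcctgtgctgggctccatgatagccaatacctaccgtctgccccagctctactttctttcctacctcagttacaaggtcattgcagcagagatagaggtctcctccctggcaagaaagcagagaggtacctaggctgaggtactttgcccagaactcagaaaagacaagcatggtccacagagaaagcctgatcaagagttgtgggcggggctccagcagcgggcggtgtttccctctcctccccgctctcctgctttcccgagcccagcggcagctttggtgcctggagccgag
The Tlr13 window holds GAGGAA 83 bases before the start, the Tlr8 window holds TTCCTC 77 bases before it, and the Tlr5 window holds neither. These letters occur on either strand in 28.3% of 32851 such windows of all genes. RefSeq start windows were matched for 8 of the 10 receptors. Among those not shown, Tlr9 holds the letters 112 bases before and 12 bases after its start, and Tlr1 23 bases before a start. Tlr2, Tlr3 and Tlr6 hold none. A match describes letters only, and no binding was measured.

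All 10 receptors were detected in all 22 libraries, but at very different levels. Per kilobase of exon, Tlr2 (chr3:83836272-83841767), the common partner of Tlr1 and Tlr6 for bacterial lipopeptides, was the highest receptor in each macrophage group, with 118 ± 3.21 CPM per kb in aged RCAM libraries, 88.7 ± 14.3 in young RCAM libraries, 68.98 ± 7.31 in capsule macrophages and 146 ± 6.78 in kidney macrophages (SD, n = 4 each). In tissue the highest was Tlr4 (chr4:66827584-66930284), the lipopolysaccharide receptor, at 22.2 ± 4.103 CPM per kb in aged and 13.8 ± 1.79 in young libraries (SD, n = 3 each). Tlr9 (chr9:106222598-106226883), the receptor for unmethylated CpG DNA, was the lowest receptor in aged RCAM, young RCAM and capsule macrophages, at 0.626 ± 0.296, 0.555 ± 0.142 and 1.06 ± 0.172 CPM per kb. In kidney macrophages the lowest was the flagellin receptor Tlr5 (chr1:182954788-182976044), at 0.976 ± 0.352 CPM per kb. The order between receptors rests on exon length, although intronic reads may be counted. Exons fill 5.41% of the genomic span of Tlr4 and 54.8% of that of Tlr2, so their order in tissue holds per kb of exon only.

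**Figure D1:**
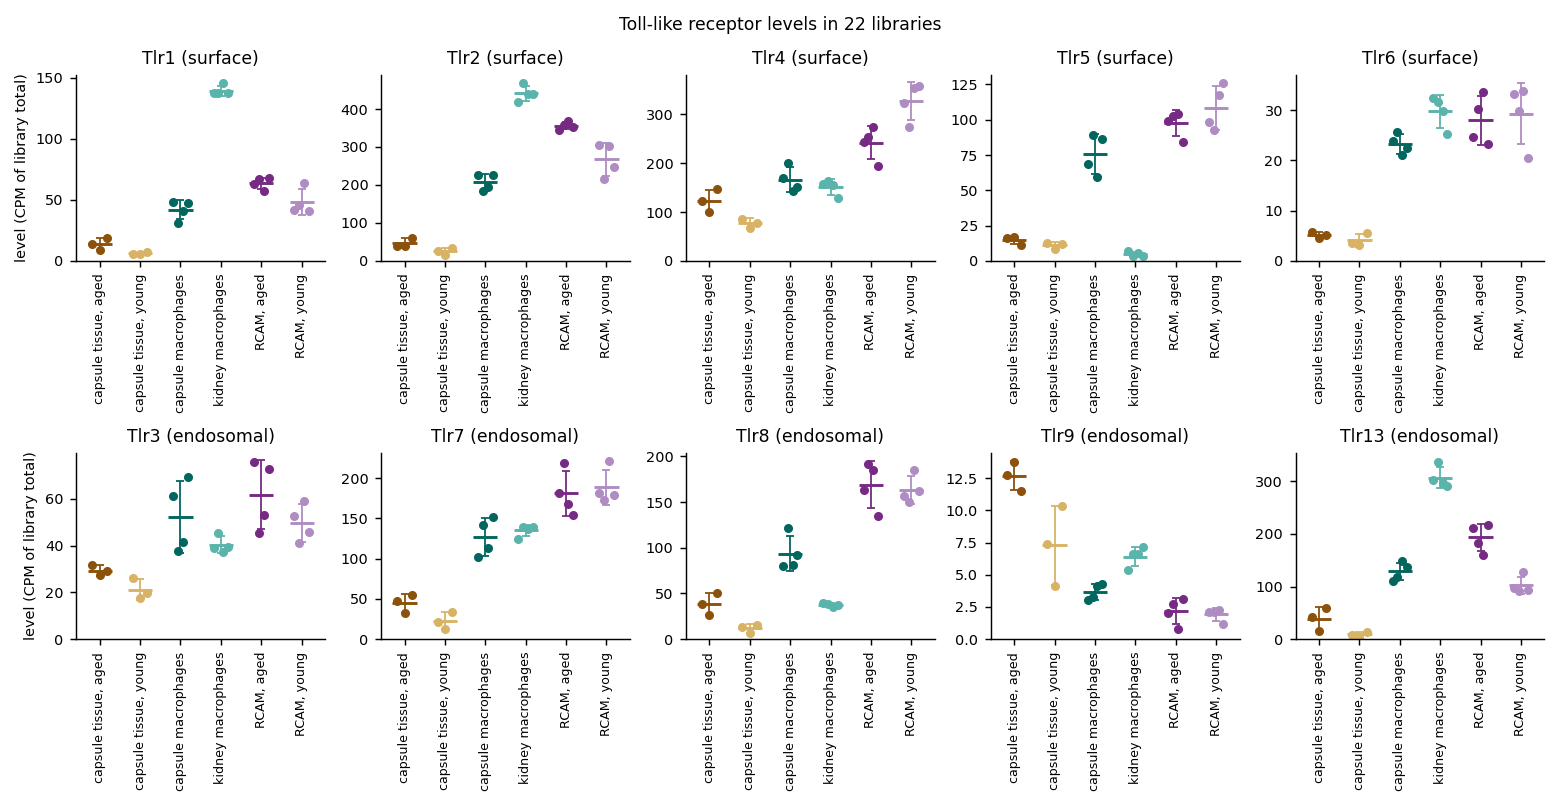
Level of each receptor in CPM of the library total (vertical axes, linear and scaled per gene) in the 6 groups, with each point a library and bars the mean ± SD (n = 3 for tissue, 4 for the others). Tlr1, Tlr2 and Tlr13 were highest in kidney macrophages, Tlr5 was lowest there, and Tlr9 alone was higher in tissue than in RCAM libraries.

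The order of the groups differed from receptor to receptor. For Tlr1, Tlr2 and Tlr13, kidney macrophages came first with a library range apart from that of the next group, the aged RCAM libraries. Young RCAM libraries led for Tlr4, Tlr5 and Tlr7 and aged RCAM libraries for Tlr3 and Tlr8, but in all 5 the ranges of the leading pair of groups overlapped. Tlr6 hardly separated the macrophage groups, at 23.3 ± 1.99 CPM in capsule and 29.8 ± 3.25 CPM in kidney macrophages (SD, n = 4 each) and each range overlapping the next. Tlr9 ran the other way, with the highest level in aged tissue (12.7 ± 1.12 CPM, SD, n = 3) and the lowest in young RCAM libraries (1.93 ± 0.495 CPM, SD, n = 4).

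Endosomal receptors held under 50% of the receptor transcripts in every library. They took 43.1, 42.7, 39.1 and 41.8% of the summed level per kb in the 4 aged RCAM libraries, against 37.6, 41.3, 40.5 and 38.6% in the young ones. Their share was 37.8, 44.2, 43.8 and 43.7% in capsule macrophages, against 35.6, 36.3, 34.99 and 35.9% in kidney macrophages, so every capsule library lay above every kidney library. In aged tissue it was 48.7, 42.00 and 47.4%, against 37.7, 33.1 and 42.3% in young tissue, and one young library lay above one aged library. The share is a description with no test. It rests on the length used, since on the genomic width in the deposited tables all 4 macrophage groups fell below 30%, although capsule macrophages stayed above kidney macrophages on average (29.5% against 22.3%).

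**Figure D2:**
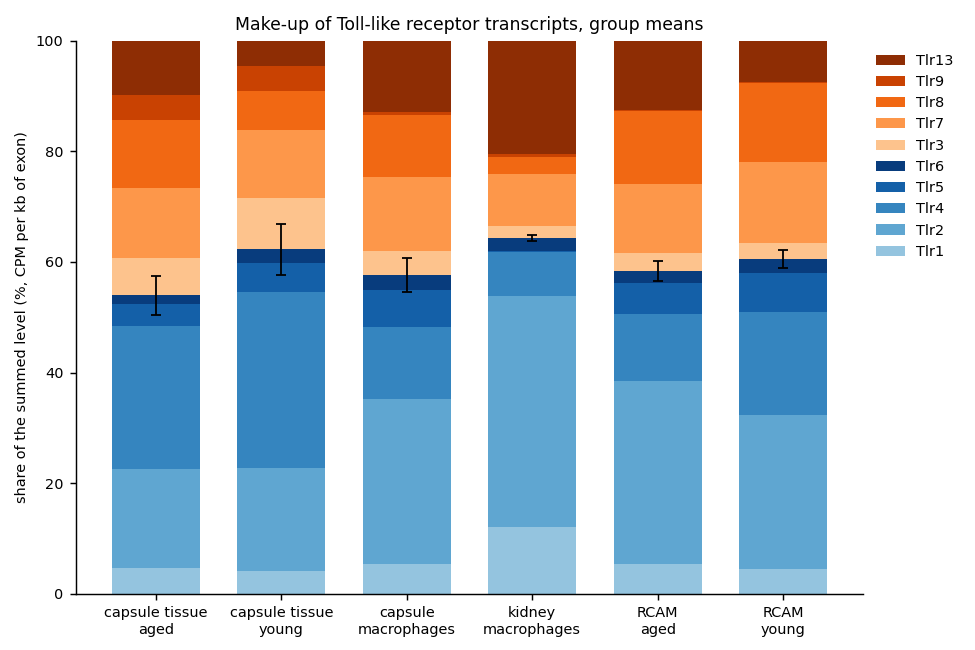
Mean share of each receptor in the summed level of all 10 receptors (vertical axis, percent of CPM per kb of exon) in the 6 groups, with surface receptors in blue below and endosomal receptors in orange above, and error bars showing the SD of the surface share over libraries (n = 3 for tissue, 4 for the others). Tlr2 filled 29.8% of the bar in capsule and 41.9% in kidney macrophages, and Tlr5 filled 6.79% in capsule against 0.281% in kidney macrophages.

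Macrophages of the capsule and of the kidney differed in the level of most receptors. Capsule macrophages had far more Tlr5 and more Tlr8, and less Tlr1, Tlr2 and Tlr13. At an adjusted p under 0.05 in edgeR's quasi-likelihood test, 8 of the 10 receptors passed, 4 higher and 4 lower, on a background of 55.4% of all genes tested (27.3% higher and 28.2% lower). The median log2 fold change of the 10 was -0.01, against -0.03 over all genes. Library ranges in CPM did not overlap for 6 of them, on a background of 58.9%.

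Among surface receptors, Tlr5 had 68.97, 88.8, 59.1 and 86.1 CPM in capsule macrophages, against 6.81, 3.57, 5.21 and 3.11 CPM in kidney macrophages. The lowest capsule library was thus more than 8 times the highest kidney library, and the log2 fold change was 4.24 ± 0.24 (SE, adjusted p = 2.8e-07). Tlr1, which pairs with Tlr2 for triacylated lipopeptides, had 48.3, 31.1, 41.1 and 47.4 CPM in capsule macrophages, against 138, 137, 146 and 138 CPM in kidney macrophages. Kidney libraries agreed within 9 CPM and all lay above every capsule library, and the log2 fold change was -1.52 ± 0.13 (SE, adjusted p = 5.1e-06). Tlr2 followed the same direction, with 226, 184, 195 and 228 CPM in capsule macrophages, against 419, 468, 438 and 439 CPM in kidney macrophages, and a log2 fold change of -0.87 ± 0.09 (SE, adjusted p = 2.6e-05). Tlr6 (chromosome 5), which pairs with Tlr2 for diacylated lipopeptides, did not pass, with 23.9, 25.6, 21.01 and 22.5 CPM in capsule macrophages, against 32.4, 31.7, 29.9 and 25.2 CPM in kidney macrophages, and adjusted p = 0.291.

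Tlr4 was nearly level between the sites, with 170.3, 200.4, 143 and 152 CPM in capsule macrophages, against 157, 163, 156 and 128 CPM in kidney macrophages. The ranges overlapped, and the call (log2 fold change 0.35 ± 0.11, SE, adjusted p = 0.0228) rests on the scaling of the libraries. The TMM factors moved the median of all genes by 0.211 (log2) towards the capsule relative to plain library totals. On plain totals 7 receptors passed, on a background of 56.3%. The log2 fold change of Tlr4 was then 0.14 (adjusted p = 0.336), and Tlr6 passed as lower in capsule macrophages at -0.36 (adjusted p = 0.0221).

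Among endosomal receptors, Tlr8 (chrX:167242696-167264329), whose human form senses single-stranded RNA, had 79.8, 122, 81.2 and 91.9 CPM in capsule macrophages, against 40.04, 38.8, 35.4 and 36.98 CPM in kidney macrophages. The groups were apart by nearly the whole kidney level, and the log2 fold change was 1.52 ± 0.13 (SE, adjusted p = 6.2e-06). Its neighbour on the X chromosome, the single-stranded RNA receptor Tlr7 (chrX:167304929-167330558), had 102, 142, 114 and 152 CPM in capsule macrophages, against 124, 139.7, 138 and 139 CPM in kidney macrophages. These ranges overlapped, the test did not pass (adjusted p = 0.437), and the sign of the log2 fold change differed between TMM scaling (0.12) and plain library totals (-0.09). Tlr13 (chrX:106143204-106160493), a mouse receptor for bacterial ribosomal RNA, had 111, 118, 148 and 137 CPM in capsule macrophages, against 303, 338, 298 and 291 CPM in kidney macrophages. Every kidney library was above every capsule library, and the log2 fold change was -1.05 ± 0.10 (SE, adjusted p = 1.4e-05).

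Tlr3 (chr8:45395665-45411080), the receptor for double-stranded RNA, had 61.2, 37.6, 41.5 and 69.5 CPM in capsule macrophages, against 39.1, 45.6, 37.1 and 39.5 CPM in kidney macrophages, a spread among capsule libraries wider than the difference of the means. Its call (log2 fold change 0.59 ± 0.19, SE, adjusted p = 0.0235) was lost on plain library totals (adjusted p = 0.106) and when capsule library 1 or 4 or kidney library 1, 3 or 4 was left out, where adjusted p lay between 0.0518 and 0.0684. Tlr9 had 3.07, 3.25, 4.13 and 4.25 CPM in capsule macrophages, against 5.34, 6.61, 6.59 and 7.14 CPM in kidney macrophages, apart but at low counts (132 to 192 reads in capsule and 210 to 356 in kidney libraries). Its call (log2 fold change -0.60 ± 0.21, SE, adjusted p = 0.0318) was lost with no expression filter (adjusted p = 0.0558), with the replicate number as a block (0.0509) and without capsule library 1 or 2 or kidney library 2, 3 or 4, with adjusted p up to 0.0724. Tlr4 lost its call without capsule library 2 or kidney library 3 or 4, with adjusted p up to 0.0737, and the fewest receptors called with a library left out was 5.

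**Figure D3:**
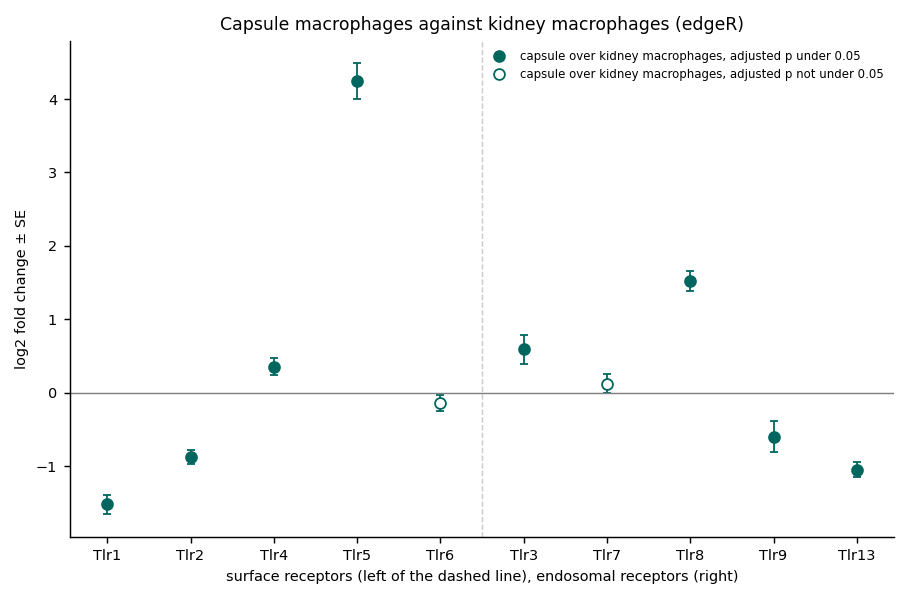
Log2 fold change ± SE (vertical axis) of each receptor in capsule over kidney macrophages (n = 4 each), with filled points at an adjusted p under 0.05 and open points at a higher one. Tlr5 at 4.24 and Tlr8 at 1.52 stood above 0, Tlr1, Tlr2, Tlr9 and Tlr13 below, and surface and endosomal receptors each held both directions.

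Genes that work with the receptors also moved in both directions between the sites. Of 66 such signalling genes tested over 5 lists, 42 (63.6%) passed, on the background of 55.4% given above. Of 11 co-receptors and chaperones tested, 5 were higher and 5 lower in capsule macrophages. Lbp, the lipopolysaccharide-binding protein, averaged 14.3 ± 1.297 CPM in capsule and 0.251 ± 0.135 CPM in kidney macrophages (SD, n = 4 each). Ly96, the co-receptor that binds lipopolysaccharide with Tlr4, averaged 45.5 ± 3.78 CPM in capsule and 20.9 ± 2.29 CPM in kidney macrophages, and the scavenger receptor Cd36, a helper of Tlr2, 1630 ± 232 CPM in capsule and 725 ± 38.4 CPM in kidney macrophages. Their log2 fold changes were 6.02 ± 0.35, 1.34 ± 0.11 and 1.38 ± 0.11 (SE). Other members of the list went the other way: Cd14, which hands lipopolysaccharide to Tlr4, averaged 969 ± 105 CPM in capsule and 1868 ± 125 CPM in kidney macrophages (SD, n = 4 each). Its log2 fold change was -0.74 ± 0.10, with -0.54 ± 0.10 for Cd180, a relative of Tlr4 on B cells and macrophages, and -0.75 ± 0.10 for its partner Ly86 (SE), 3 genes named here after their values were seen. Of 20 adaptors and proximal kinases, 4 were higher and 8 lower. Ticam2, the bridging adaptor of Tlr4, rose by 1.56 ± 0.14 (log2, SE), while the kinase Irak2 and the IkB kinase subunit Chuk had log2 fold changes of -1.36 ± 0.12 and -1.30 ± 0.09.

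Downstream, 3 of 9 transcription factors were higher (Fos, 1.29 ± 0.16) and 2 lower in capsule macrophages, namely the NF-kB subunits Rel (-1.24 ± 0.14) and Nfkb1 (-0.62 ± 0.14), as log2 fold changes with SE. Of 13 negative regulators, 4 were higher and 4 lower. Irak3, an inhibitory member of the Irak family, changed by 1.05 ± 0.10, the NF-kB inhibitor Tnip1 by -0.98 ± 0.08 and the ubiquitin ligase Rnf216 by -0.64 ± 0.10 on the log2 scale. Of 13 target cytokine genes, 3 were higher and 4 lower. Il1b, the gene of the cytokine interleukin 1 beta, averaged 47.1 ± 4.47 CPM in capsule and 531 ± 44.3 CPM in kidney macrophages (SD, n = 4 each), and the chemokines Ccl3 and Ccl4 changed by -2.69 ± 0.20 and -2.61 ± 0.18 (log2, SE). The median log2 fold change was 0.18 for co-receptors, -0.17 for adaptors and kinases, -0.02 for transcription factors, 0.11 for negative regulators and -0.25 for cytokines, against -0.03 over all genes. Of the remaining mouse receptors of this family, Tlr12 averaged 7.92 ± 2.405 CPM in capsule and 63.9 ± 10.01 CPM in kidney macrophages (adjusted p = 3.3e-06), and Tlr11 did not pass (adjusted p = 0.0581).

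Markers of other cells moved with the site. Fibroblast markers summed to 567 to 863 CPM in capsule macrophages, against 7.49 to 11.3 CPM in kidney macrophages, kidney tubule markers to 5.62 to 67.2 against 746 to 1166 CPM and B cell markers to 19.4 to 24.8 against 74.7 to 97.2 CPM. Monocyte markers went in both directions. The coagulation factor gene F13a1 averaged 3855 ± 672 CPM in capsule and 20.7 ± 4.84 CPM in kidney macrophages, whereas the chemokine receptor gene Ccr2 averaged 502 ± 75.2 CPM in capsule and 1149 ± 57.7 CPM in kidney macrophages (SD, n = 4 each), and both passed. The other 4 of the 6 did not pass, and the 5 without F13a1 summed to 495 to 673 CPM in capsule and 1187 to 1291 CPM in kidney macrophages. The 10 macrophage markers themselves were called higher in capsule macrophages for 9 genes and lower for 1. The part of these cells in the receptor differences was not tested. In bulk samples, fewer cells of a type and less RNA per cell cannot be told apart. Myd88, the shared adaptor, and Irf8 were listed at 0 in all 22 libraries, and the chaperone Cnpy3 in all 16 macrophage and RCAM libraries but not in tissue. Of 10074 genes with at least 10 CPM in tissue, 218 were listed at 0 in all 16, and 97.7% of those overlap a gene on the other strand, against 43.2% of all 10074, so these zeros are not read as absence.

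Among RCAM libraries, age went with a higher level of a single receptor, Tlr13. It was the only one of the 10 that passed, on a background of 4.8% of genes (3.43% higher). Tlr13 had 212, 183, 161 and 217 CPM in aged RCAM libraries, against 98.05, 90.7, 127 and 92.9 CPM in young RCAM libraries. Every aged library was above every young one, and the log2 fold change was 0.90 ± 0.12 (SE, adjusted p = 0.00329, edgeR). It passed under every alternative run, with adjusted p up to 0.0267 (in the fit with the replicate number as a block). The aged level lay between those of capsule macrophages and of kidney macrophages.

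The surface receptors were close to the threshold in part. Tlr2 had 345, 358, 368 and 353 CPM in aged RCAM libraries, against 305, 216, 301 and 247 CPM in young RCAM libraries, ranges that did not overlap, and a log2 fold change of 0.39 ± 0.11 (SE, adjusted p = 0.0844). Tlr4 had 244, 254, 275 and 195 CPM in aged RCAM libraries, against 324, 274, 354 and 358 CPM in young RCAM libraries, overlapping by less than 1 CPM, and a log2 fold change of -0.46 ± 0.12 (SE, adjusted p = 0.0582). Tlr1 had 62.6, 66.7, 57.4 and 67.7 CPM in aged RCAM libraries, against 41.9, 45.4, 64.02 and 41.1 CPM in young RCAM libraries, where young library 3 reached into the aged range (adjusted p = 0.135). DESeq2 called Tlr2 (adjusted p = 0.0142) and Tlr4 (adjusted p = 0.00454) beside Tlr13, on a background of 9.49%. Leaving out young library 1 brought Tlr2 past the threshold (adjusted p = 0.0347), young library 2 Tlr4 (0.0415) and young library 3 Tlr1 (0.0187).

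The other receptors showed no change that passed. Tlr5 had 98.9, 103, 104 and 84.2 CPM in aged RCAM libraries, against 98.2, 92.5, 117 and 126 CPM in young RCAM libraries. Tlr8, which was so different between the sites, had 163, 192, 185 and 135 CPM in aged RCAM libraries, against 156, 149.9, 185 and 162 CPM in young RCAM libraries, with a log2 fold change of 0.03 ± 0.11 (SE). For both, the ranges overlapped. Tlr3, Tlr6, Tlr7 and Tlr9 had log2 fold changes of 0.29 ± 0.17, -0.09 ± 0.18, -0.08 ± 0.12 and 0.15 ± 0.41 (SE), and the last rests on 35 to 143 reads per library. The median over the 10 receptors was 0.09, against -0.01 over all genes, and 4 had an unadjusted p under 0.05, on a background of 17.4%.

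Of 66 signalling genes tested over 5 lists, 5 (7.58%) passed with age in RCAM libraries, on the background of 4.8% given above. None of 11 co-receptors and none of 9 transcription factors passed. Of them 2 and 5 had an unadjusted p under 0.05, on a background of 17.4%. Ticam2 fell to 69.7 ± 6.22 CPM in aged RCAM libraries, against 89.9 ± 5.31 CPM in young RCAM libraries (SD, n = 4 each, adjusted p = 0.0291), the 1 call among 20 adaptors and kinases. That call was lost with the replicate number as a block and without young library 1, 3 or 4 or aged library 1, 2 or 4. Of 13 negative regulators, 3 rose and none fell: Tnfaip3, the NF-kB inhibitor A20, by 0.70 ± 0.10, Nfkbia, the inhibitor IkB-alpha, by 0.50 ± 0.08 and the cytokine signalling suppressor Socs3 by 0.67 ± 0.14 (log2, SE), where the call of Socs3 was lost without young library 2 or 4 or aged library 1 or 4. Of 13 cytokine genes, Il1b alone passed, at 51.97 ± 10.1 CPM in aged and 22.9 ± 5.59 CPM in young RCAM libraries (SD, n = 4 each, adjusted p = 0.0056). Fibroblast markers summed to 1228, 889.8, 2162 and 2538 CPM in aged RCAM libraries, against 601, 515, 720.1 and 717 CPM in young RCAM libraries, and B cell markers to 41.4 to 57.9 against 11.7 to 22.3 CPM. Of the 6 monocyte markers, 4 had a positive and 2 a negative log2 fold change. F13a1 fell to 3558 ± 558 CPM in aged RCAM libraries, against 5537 ± 585 CPM in young RCAM libraries, and Hp, haptoglobin, rose to 31.5 ± 10.9 CPM in aged RCAM libraries, against 11.7 ± 2.94 CPM in young RCAM libraries (SD, n = 4 each). The 5 without F13a1 summed to 542 to 718 CPM in aged and 526 to 799 CPM in young RCAM libraries, which overlapped. The summed macrophage markers overlapped, and none of the 10 was called. The part of these cells in the Tlr13 difference was not tested.

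In capsule tissue, all 10 receptors had a positive log2 fold change in aged over young libraries, but none passed at an adjusted p under 0.05 in edgeR, where 0.239% of all genes did. At an unadjusted p under 0.05, 6 of the 10 lay below it, on a background of 22.5%, and the median log2 fold change was 0.73, against 0.03 over all genes. Library ranges did not overlap for 7 receptors, all higher in aged tissue, on a background of 20.2% of genes. The 2 age comparisons, in tissue and in RCAM libraries, share no library.

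The largest differences were in the endosomal receptors Tlr13 and Tlr8. Tlr13 had 42.3, 14.96 and 59.7 CPM in aged tissue, against 8.21, 4.65 and 14.1 CPM in young tissue, and a log2 fold change of 2.01 ± 0.55 (SE, adjusted p = 0.106). Tlr8 had 38.3, 26.4 and 50.9 CPM in aged tissue, against 13.2, 6.62 and 15.2 CPM in young tissue, and a log2 fold change of 1.62 ± 0.35 (SE, adjusted p = 0.083). For both, library 2 was the lowest of its group at either age, and the aged and young ranges were apart, by less than 1 CPM for Tlr13. Tlr7 had 47.7, 31.9 and 54.4 CPM in aged tissue, against 21.6, 13.1 and 34.2 CPM in young tissue, with young library 3 inside the aged range (0.85 ± 0.35, log2, SE). Tlr9 had 12.8, 13.8 and 11.6 CPM in aged tissue, against 7.38, 4.13 and 10.3 CPM in young tissue, where aged libraries lay above young ones (0.69 ± 0.32). Tlr3 had a log2 fold change of 0.37 ± 0.18.

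The surface receptors had smaller log2 fold changes than Tlr13 and Tlr8. Tlr1 had 14.1, 8.91 and 18.8 CPM in aged tissue, against 5.73, 5.403 and 6.94 CPM in young tissue, with aged libraries above young ones and a log2 fold change of 1.10 ± 0.31 (SE, adjusted p = 0.111). Tlr2 had 38.7, 39.1 and 60.9 CPM in aged tissue, against 26.7, 16.3 and 32.8 CPM in young tissue (0.77 ± 0.30). Tlr4 had 123, 101 and 146 CPM in aged tissue, against 86.6, 66.7 and 77.4 CPM in young tissue (0.57 ± 0.20). In these receptors too the aged and young ranges were apart, whereas those of Tlr5 (0.33 ± 0.23) and Tlr6 (0.20 ± 0.30) overlapped.

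The replicate numbers of the tissue libraries went together in the data, as same-numbered aged and young libraries deviated alike from their group means. With the number as a block, edgeR called 5 receptors higher in aged tissue, on a background of 13.4% (5.77% higher): Tlr13 (adjusted p = 0.00174), Tlr8 (0.00198), Tlr7 (0.0127), Tlr2 (0.03) and Tlr1 (0.0301). DESeq2 without a block called 3, Tlr1, Tlr8 and Tlr13, on a background of 11.5%, edgeR with no expression filter called 2, Tlr8 and Tlr13, on one of 4.36%, and limma-voom called none, on one of 0.153%. Without both libraries numbered 2, Tlr8 (adjusted p = 0.0347) and Tlr13 (0.0341) passed, on a background of 2.93%.

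The 10 macrophage markers in tissue summed to 5559, 4137 and 10180 CPM in aged and 3045, 2012 and 4010 CPM in young libraries, and their median log2 fold change was 0.90. Set against 1000 CPM of these markers, Tlr8 was 6.88, 6.39 and 5.004 in aged tissue, against 4.34, 3.29 and 3.79 in young tissue, and the groups were still apart. Tlr13 was 7.602, 3.62 and 5.87 in aged tissue, against 2.696, 2.31 and 3.51 in young tissue, again apart but narrowly (3.62 against 3.51). Tlr6 was 1.02, 1.09 and 0.515 in aged tissue, against 1.196, 1.56 and 1.39 in young tissue, apart in the other direction. The remaining 7 overlapped on this scale, among them Tlr1, Tlr2, Tlr3, Tlr4 and Tlr9, whose CPM did not. How many of all genes are apart on this scale was not worked out, so these counts have no background. The scale also leans on Lyz2, without which the markers summed to 2552 to 5324 CPM in aged and 1234 to 2553 CPM in young tissue. Receptor values against the markers without Lyz2 were not worked out. Against all 10 markers, Tlr4, for example, was 22.1, 24.3 and 14.4 in aged tissue, against 28.4, 33.1 and 19.3 in young tissue. B cell markers summed to 79.5, 60.4 and 94.1 CPM in aged and 15.1, 17.9 and 22.5 CPM in young tissue, and T cell markers to 55.4 to 68.8 against 14.1 to 25.1 CPM. Kidney tubule markers went the other way, at 379 to 1200 CPM in aged against 1265 to 5052 CPM in young tissue. All 6 of them had a negative log2 fold change (median -2.07), and none passed. The part of these cells in the receptor levels was not tested.

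**Figure D4:**
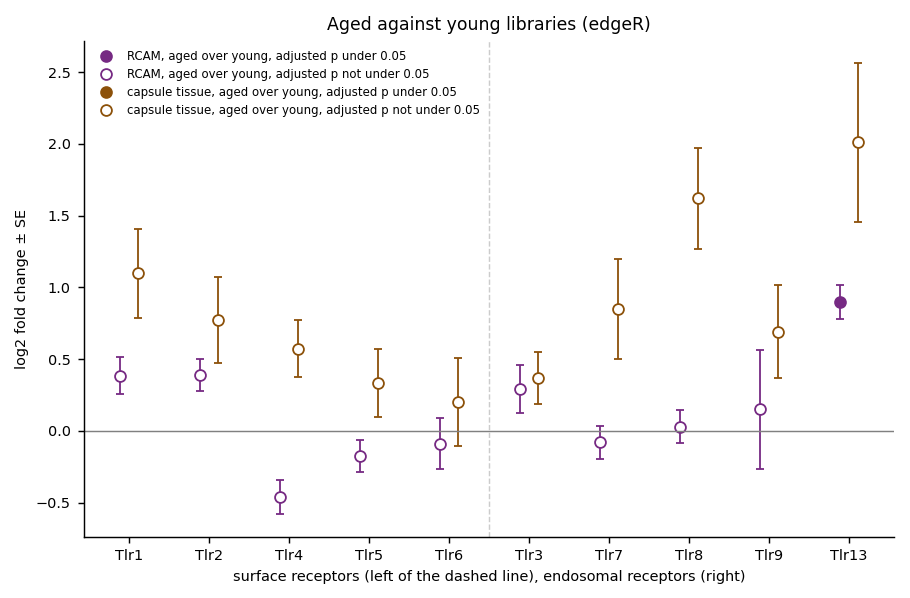
Log2 fold change ± SE (vertical axis) of each receptor in aged over young RCAM libraries (n = 4 each) and in aged over young capsule tissue (n = 3 each), with filled points at an adjusted p under 0.05. All tissue points lay above 0 and none was filled, and in RCAM libraries Tlr13 at 0.90 was the single filled point.

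No co-receptor (of 12), adaptor or kinase (of 20), transcription factor (of 9), negative regulator (of 13) or cytokine gene (of 11) passed in tissue either. Of them 3, 8, 3, 7 and 5 had an unadjusted p under 0.05, on the background of 22.5% given above. Ikbke, a kinase that activates interferon regulatory factors, had 17.9 ± 4.96 CPM in aged and 5.86 ± 1.27 CPM in young tissue (SD, n = 3 each, adjusted p = 0.0645). Unc93b1, which carries endosomal receptors to their compartment, had 258 ± 52.4 CPM in aged and 152 ± 43.7 CPM in young tissue (adjusted p = 0.207). Cd180 had 48.04 ± 20.4 CPM in aged and 18.8 ± 7.99 CPM in young tissue (adjusted p = 0.139), and Rel had 17.1 ± 2.17 CPM in aged and 8.37 ± 1.01 CPM in young tissue (adjusted p = 0.0858).

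Set against whole capsule tissue, RCAM libraries held more of 9 receptors and less Tlr9 at both ages. All 10 passed in aged libraries, on a background of 70.7% (32.2% higher and 38.5% lower), and all 10 in young libraries, on a background of 75.9% (35.2% higher and 40.6% lower). The median log2 fold change of the receptors was 2.49 in aged and 3.28 in young libraries, against -0.16 and -0.14 over all genes. The change of scaling from TMM to plain library totals moved the median of all genes by 0.325 (aged) and 0.261 (young) on the log2 scale, and no receptor changed its call. The RCAM and tissue comparisons at the same age share libraries with the age comparisons. Sample kind and library kit cannot be told apart here.

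Tlr8 differed most in young libraries, with 156, 149.9, 185 and 162 CPM in young RCAM libraries, against 13.2, 6.62 and 15.2 CPM in young tissue (4.06 ± 0.28, log2, SE). In aged libraries it was Tlr2, with 345, 358, 368 and 353 CPM in aged RCAM libraries, against 38.7, 39.1 and 60.9 CPM in aged tissue (3.26 ± 0.21). Tlr4 was the surface receptor with the smallest difference, at 1.30 ± 0.18 in aged and 2.35 ± 0.14 in young libraries, and Tlr3 was the endosomal one among those that were higher, at 1.39 ± 0.19 and 1.50 ± 0.18. Every RCAM library lay above every tissue library of its age for each of these 4 receptors, on a background of 26.8% of genes in aged and 31.9% in young libraries. Tlr1, Tlr5, Tlr6, Tlr7 and Tlr13 lay between 2.35 and 3.03 in aged and between 3.09 and 3.76 in young libraries. Over the same contrast the 10 macrophage markers had a median of 2.77 in aged and 3.97 in young libraries.

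Tlr9 was the exception. It had 2.05, 2.76, 0.778 and 3.11 CPM in aged RCAM libraries, against 12.8, 13.8 and 11.6 CPM in aged tissue, a log2 fold change of -2.22 ± 0.42 (SE, adjusted p = 0.00148). It had 2.13, 2.11, 2.29 and 1.199 CPM in young RCAM libraries, against 7.38, 4.13 and 10.3 CPM in young tissue, a log2 fold change of -1.65 ± 0.38 (SE, adjusted p = 0.00402). RCAM libraries stayed below tissue in both, at 35 to 143 reads per RCAM library. B cells and plasmacytoid dendritic cells are known carriers of Tlr9. Summed markers of plasmacytoid dendritic cells were 346 to 437 CPM in aged RCAM libraries, against 196 to 230.5 CPM in aged tissue. In young libraries they were 380 to 415 against 194 to 335 CPM. Without Tcf4, the largest of them, the sums were 164.5 to 231.5 against 88.7 to 128.8 CPM in aged libraries. In young ones they were 178 to 192 against 123.5 to 270 CPM, which overlapped. Of these 6 markers, 4 were called higher and 2 lower in aged RCAM libraries, and 3 higher and 2 lower in young ones. One of the 6, Klk1, moved as the kidney tubule markers did in the edgeR fits with the replicate number as a block. Its log2 fold change was -2.90 in aged over young tissue and -5.68 in capsule over kidney macrophages. The tubule markers had -2.35 to -1.10 and -6.54 to -5.60. Sums without Klk1 were not worked out, and the part of tubule cells in these sums was not tested. Summed B cell markers were 41.4 to 57.9 CPM in aged RCAM libraries, against 60.4 to 94.1 CPM in aged tissue. They were 11.7 to 22.3 CPM in young RCAM libraries, against 15.1 to 22.5 CPM in young tissue. Much of the RCAM sums was Cd79b. Without it they were 17.4 to 27.6 against 43.7 to 70.9 CPM in aged and 1.71 to 4.54 against 9.33 to 13.3 CPM in young libraries. Of the 6 B cell markers, 1 was called higher and 4 lower in aged RCAM libraries, and 2 higher and 4 lower in young ones. Of these markers Ms4a1 was listed at 0 in every RCAM library, and Pax5 in every young one. The part of these cells in the Tlr9 level was not tested.

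**Figure D5:**
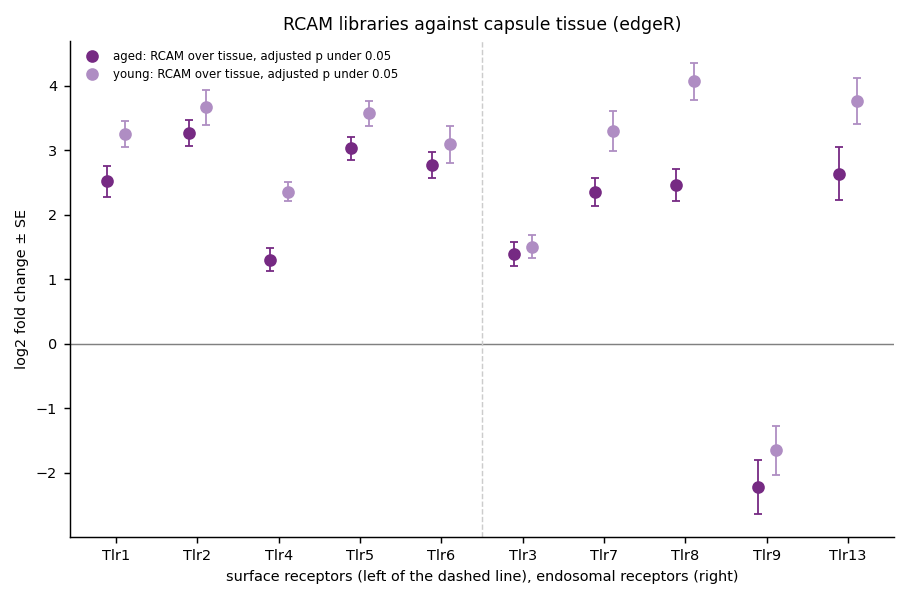
Log2 fold change ± SE (vertical axis) of each receptor in RCAM libraries over capsule tissue, in aged (n = 4 against 3) and in young (n = 4 against 3) libraries, all at an adjusted p under 0.05. For each age 9 points lay above 0, and Tlr9 lay at -2.22 in aged and -1.65 in young libraries.

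In each list of signalling genes, more members were higher than lower in RCAM libraries. Genes listed at 0 in every RCAM library of an age are left out of the counts per list. These were Cnpy3, Ccl2 and Cxcl10 at both ages and Cd300lf in aged libraries. With them kept in, 56 of 71 signalling genes (78.9%) passed in aged and 61 of 70 (87.1%) in young libraries. The background was 70.7% in aged libraries (32.2% higher and 38.5% lower). It was 75.9% in young libraries (35.2% higher and 40.6% lower). Co-receptors and chaperones were higher for 7 and lower for 2 of 11 in aged, and higher for 9 and lower for 1 of 11 in young RCAM libraries. Adaptors and kinases were higher for 12 and lower for 2 of 20 in aged, and higher for 14 and lower for 2 of 20 in young libraries. Cd14, which is also in the macrophage marker list, averaged 823 ± 53.6 CPM in aged RCAM libraries and 50.4 ± 9.45 CPM in aged tissue. Unc93b1 averaged 2655 ± 159 CPM in aged RCAM libraries and 258 ± 52.4 CPM in aged tissue (SD, n = 4 and 3). Transcription factors were higher for 7 and lower for 1 of 9 in aged and higher for 7 of 9 in young libraries, negative regulators higher for 10 and lower for none of 13 in aged and higher for 11 and lower for 1 of 13 in young libraries, and cytokine genes higher for 9 and lower for 2 of 14 in aged and higher for 12 and lower for 1 of 14 in young libraries.

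The age effect itself was compared between RCAM libraries and tissue by an interaction test over these 14 libraries. All 10 receptors had a negative difference, that is, less increase with age in RCAM libraries than in tissue, and Tlr4 and Tlr8 passed, on a background of 5.05% (1.93% lower). Tlr4 was lower in aged than in young RCAM libraries and higher in aged than in young tissue on average, with neither comparison past the threshold alone, and the difference of the log2 fold changes was -0.99 ± 0.22 (SE, adjusted p = 0.0295). Tlr8 had log2 fold changes of 0.03 in RCAM libraries and 1.62 in tissue, neither past the threshold alone, a difference of -1.55 ± 0.36 (SE, adjusted p = 0.0313). Tlr7 and Tlr13 differed by -0.89 ± 0.36 and -1.07 ± 0.54 without passing (adjusted p = 0.166 and 0.267). With the replicate number as a block, 4 passed, on a background of 7.28%, adding Tlr7 (0.031) and Tlr13 (0.0419).

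These calls rest on single libraries. Without young tissue library 1, young RCAM library 3 or 4, or aged RCAM library 1, none of the 10 passed, with adjusted p for Tlr4 between 0.0505 and 0.0546 and for Tlr8 between 0.0516 and 0.0568. Tlr8 alone was also lost without aged tissue library 1 (0.054) or aged RCAM library 4 (0.0536). Over the 5 lists of signalling genes, 8 of 71 (11.3%) passed in the interaction test, on the background of 5.05% given above. Of 20 adaptors and kinases, 5 had a negative difference that passed and none a positive one. Ticam2 differed by -1.42 ± 0.26, and the kinases Ripk1 and Tbk1, which act on the Ticam1 branch, by -0.73 ± 0.14 and -0.78 ± 0.16 (log2, SE), the last lost without young tissue library 1. The 10 macrophage markers had a median difference of -0.88 in the same test, with 1 called lower, against 0.06 over all genes.

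Genes with a pattern most like each receptor over the 6 group means were found by the smallest root mean square difference of log2(CPM + 1), centred per gene, among 12118 genes. For Tlr5 they were Prune2 (0.24) and Pltp (0.26), and Pltp, a phospholipid transfer protein, had 3983 CPM on average in capsule and 203 CPM in kidney macrophages. For Tlr8 they were Cd200r1, an inhibitory receptor of myeloid cells (0.22), and the scavenger receptor Stab1 (0.24). For Tlr13 they were Arhgap25 (0.20) and the interleukin receptor gene Il21r (0.23), for Tlr1 Fyb (0.16) and Pkib (0.17), and for Tlr2 the exchange factor Vav3 (0.18) and the leukotriene receptor Cysltr1 (0.20). The remaining pairs were Fam126a and Piwil2 for Tlr4, Rad54l and Sgk3 for Tlr6, Slc3a2 and Flii for Tlr3, Plxnc1 and Atp2b1 for Tlr7, and Wnk1 and Zfp598 for Tlr9, with differences from 0.07 to 0.13. These are likenesses over 6 points that share libraries and their depth.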

How the data were processed

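Each library's table, as deposited by the authors, holds whole-number read counts per gene, which were used, and RPKM values, which were not used here. Per the labels, libraries were sequenced as single-end reads of 50 bp, from either a regular-input or a low-input kit. The build is GRCm38 per the submitters' processing notes, whereas the sources used here do not give the aligner, the counter or the use of strand. The gene width in the deposited tables equalled the genomic span for 85.6% of genes, so intronic reads may be counted. Symbols, coordinates and exon lengths came from GENCODE M21 (GRCm38), in which 52489 of 52636 gene identifiers were found.

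Differences were tested on the counts in edgeR 4.0.16 (R 4.3.3), with TMM factors, the default filter on low counts and the 2-sided quasi-likelihood F test. Only the compared groups entered a fit, and p-values were Benjamini-Hochberg adjusted over all genes tested, with a threshold of 0.05. The scripts were tested on simulated counts. Alternatives were RLE factors, DESeq2 1.42.0, limma-voom (limma 3.58.1), no filter, scaling without immunoglobulin, mitochondrial and haemoglobin genes, plain library totals, the replicate number as a block, and leaving out libraries. Same-numbered aged and young tissue libraries deviated together over genes (r = 0.209, 0.528 and 0.480 for numbers 1, 2 and 3), so the numbers were taken as pairs there, from the data and not the labels. CPM errors cover the spread of libraries only.

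The receptors and gene lists were chosen with earlier results of these data known. Pathway genes are named by the smallest adjusted p in their list, up to 3 a list and comparison. Of 162 listed genes, 161 were found in the tables and Tasl was not. Promoter windows came from RefSeq (GRCm38.p6).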

Additional observations from a re-analysis of the deposited data

Results flagged for a closer look

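In 3 of 40 groups of 4 libraries, a single library lay far from the other 3 by Dixon's criterion, which chance alone reaches in about 1 in 20 groups. Tlr1 had 145.7 CPM in kidney macrophage library 3, above 137.3 to 137.8 CPM in the other 3. Tlr7 had 124.2 CPM in kidney macrophage library 1, below 137.5 to 139.7 CPM in the other 3. Tlr9 had 1.20 CPM in young RCAM library 4, below 2.11 to 2.29 CPM in the other 3.

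The effect of age differed between RCAM libraries and capsule tissue for Tlr4, by -0.99 on the log2 scale, and for Tlr8, by -1.55, in edgeR's interaction test (adjusted p = 0.0295 and 0.0313). For Tlr4 the log2 fold change of aged over young was -0.46 ± 0.12 in RCAM libraries and 0.57 ± 0.20 in tissue (SE). For Tlr8 it was 0.03 ± 0.11 in RCAM libraries and 1.62 ± 0.35 in tissue. Both calls were lost when single libraries were left out, as given above.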

How the results depend on the processing

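Of 10 receptors, none was called in the tissue age comparison, but 3 with DESeq2, 2 with no expression filter, 5 with the replicate block and 2 without both libraries numbered 2, and 0 with any single library left out. In RCAM libraries 1 was called with age, 3 with DESeq2 and 1 to 2 with a library left out. Between macrophage sites 8 were called, 7 on plain library totals (an alternative added after seeing the data) and 5 to 8 with a library left out. In the interaction 2 were called, 4 with the replicate block and 0 to 3 with a library left out. All 10 were called in both comparisons of RCAM libraries with tissue under every alternative run. Numbers did not pair the libraries in the macrophage site, RCAM age and RCAM against tissue comparisons (same-number correlations not all above 0.1), where the block kept the count of called receptors within 1.5 times. Scaling by TMM in place of plain library totals moved the median of all genes by -0.118 in tissue age and 0.131 in the interaction (log2). Among single gene values, 1390 kept direction and side of the threshold, 35 gained and 39 lost a call, and 12 turned sign, none of them called. Those were Tlr7 between macrophage sites on plain library totals (-0.086), Tlr6, Tlr8 and Tlr9 in RCAM age (-0.224 to 0.0037, -0.044 to 0.129 and -0.062 to 0.428 with a library left out) and Tlr3 in the interaction (-0.19 to 0.081 with a library left out). The endosomal share moved by more than the replicate SD under other lengths or members. With the longest transcript as length it was 37.6% in young RCAM libraries. Without Tlr1 and Tlr6 it was 45.0% in aged and 42.5% in young RCAM libraries, 46.1% in capsule and 41.7% in kidney macrophages. Not divided by length it was 43.6% in aged RCAM libraries and 40.7% in kidney macrophages. On the deposited gene width (added after seeing the data) it was 27.2% in aged and 27.2% in young RCAM libraries, 29.5% in capsule and 22.3% in kidney macrophages. Tlr9, with 35 to 143 reads in each RCAM library, is the receptor whose precision depth limits most.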
